A study of Mus musculus with 12 samples.

Results

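The kainate receptor subunits are encoded by 5 genes, Grik1 to Grik5. They were taken by name, on chromosomes 16, 10, 4, 9 and 7 in that order, from the 3 tables that compare Adar2 knockout and control mice. All 5 were among the 15191 genes of the table of mRNA levels. They also held 94 of the 156805 exon bins, which are the segments into which a gene's exons are divided for a test of exon usage. Of the 143 listed editing sites, 3 lay in a kainate receptor gene, and all 3 were in Grik2. The knockout group was made up of 6 frontal cortices from male C57BL/6 mice with the genotype Adar2-/- Gria2R/R. The control group was made up of 6 frontal cortices from male litter mates with the genotype Adar2+/+ Gria2R/R. Animals of both genotypes therefore carried the Gria2R allele, which encodes arginine in the genome at the Q/R site of that AMPA receptor subunit. Ages are not given in the labels.

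Kainate receptors are tetrameric cation channels opened by glutamate. The subunits GluK1, GluK2 and GluK3, encoded by Grik1, Grik2 and Grik3, can form channels on their own, while GluK4 and GluK5, encoded by Grik4 and Grik5, bind the ligand with high affinity and need one of the others to reach the membrane as a working channel. ADAR2, the product of Adarb1, turns adenosine into inosine within duplex stretches of RNA, and ribosomes and sequencers read inosine as guanosine. The Q/R site of GluK2 lies in the loop that lines the pore, where arginine in place of glutamine lowers calcium permeability and conductance. The I/V and Y/C sites lie in the first membrane-spanning segment.

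Each table holds the authors' values per genotype or per condition, with none per library. No SD can therefore be given. Whether the authors' p-values for editing take up the spread between animals, or only the counting of reads, is not stated. Read depth per library and coverage per site are unknown. The 4 markers of cortical excitatory neurons were all in the gene table, with mean normalized counts between 798 for Tbr1 and 17440.1 for Slc17a7. The gene table names its conditions only A and B, and the genotype behind each letter is not stated. Its differences are therefore written as condition A over condition B, without a genotype. The targeted gene Adarb1 had a log2 difference of -2.21 in the authors' deposited table (authors' adjusted p = 3.06e-126).

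The sequences around the 3 edited adenosines are shown because they place the sites relative to each other and to the other subunits. A single set of codons in the Grik2 coding sequence had an isoleucine, a tyrosine and a glutamine codon at the spacing of the deposited positions. These were codons 567 (I/V), 571 (Y/C) and 621 (Q/R) of the 907-codon reading frame. The I/V and Y/C sites lay 13 bases apart in exon 12 of 17 of that transcript, and the Q/R site lay in exon 13, 150 coding bases after the Y/C site. All sequences are coding strand from GENCODE M21 transcripts (GRCm38), 30 bases each. In the first set, capitals mark the codons of the I/V and the Y/C site, in that order, and the aligned codons of the other subunits.
Grik2: tggatgtatATTctgctggctTACttgggt
Grik1: tggatgtatGTGctcctcgctTGCctagga
Grik3: tggatgtacGTGctccttgccTACctgggt
Grik4: tggctcttcATGcttctagctTATctggcg
Grik5: tggctcttcATGcttcttgccTACctggct

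Only in Grik2, among these 5 sequences, was the first marked codon one for isoleucine. Grik1 and Grik3 carried GTG there, a codon for valine, which is the residue that editing of the Grik2 codon gives. Grik4 and Grik5 carried ATG, the codon for methionine. At the second marked codon Grik1 carried TGC, a codon for cysteine, and the other 4 genes a tyrosine codon. Over this window 22 of 30 bases of Grik1 and 23 of 30 bases of Grik3 were identical to Grik2, as were 19 in Grik4 and 20 in Grik5.

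In the second set, capitals mark the Q/R codon of Grik2 and the codons aligned with it.
Grik2: ggagctctcatgCAGcaaggttctgagctc
Grik1: ggagctctcatgCAGcaaggatcggagctg
Grik3: ggctccctgatgCAGcaaggatctgaactg
Grik4: ggaggcttcatgCAGcaaggctccactatt
Grik5: ggtggcttcatgCAGcagggctcggagatc

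The glutamine codon CAG stood at this place in all 5 genes. Grik1 matched Grik2 at 27 of 30 bases of this window, Grik3 at 23, Grik5 at 22 and Grik4 at 20. The edited adenosine is the first base of the I/V codon and the second base of the Y/C and Q/R codons. It is preceded by T and followed by T at the I/V site, preceded by T and followed by C at the Y/C site, and preceded by C and followed by G at the Q/R site. No site of Grik1, Grik3, Grik4 or Grik5 was among the listed sites, and editing of these mRNAs was not analysed here.

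Editing of Grik2 was lower in the knockout at all 3 sites. The Y/C site lost nearly all of its editing, and the Q/R and I/V sites kept a substantial part. At the Y/C site (chromosome 10, position 48992582 on mm9), the authors' deposited table lists 1.97% edited reads in Adar2-/- cortex and 81.3% in Adar2+/+ cortex (authors' adjusted p = 1.22e-77). The I/V site (position 48992595) stood at 28.1% in Adar2-/- and at 71.5% in Adar2+/+ in the authors' deposited table (authors' adjusted p = 4.68e-22). For the Q/R site (position 48964136) the authors' deposited table gives 35.0% in Adar2-/- and 88.4% in Adar2+/+ (authors' adjusted p = 4.84e-31). All positions are exonic and change an amino acid. Across the editing table, 39.2% of the 143 sites fell at the same threshold (authors' adjusted p under 0.05), and so did 86.4% of the 22 sites with an amino acid change. Both shares include the Grik2 sites. Outside Grik2, 16 of the 19 amino acid sites fell, so that a fall at all 3 Grik2 sites is close to the share among amino acid sites. The size of an adjusted p depends on coverage, which is unknown, and was not used to rank the sites.

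**Figure D1:**
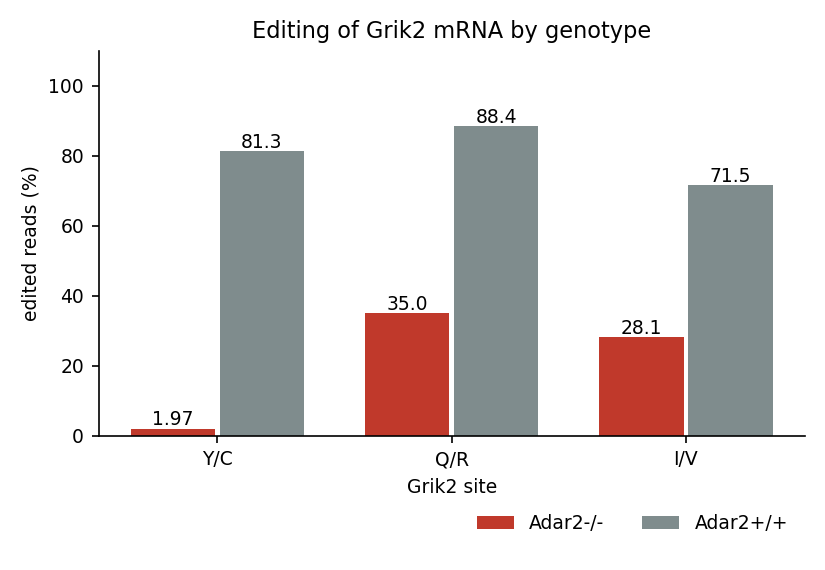
Percent of edited reads at the 3 Grik2 sites (vertical axis) in Adar2-/- cortex (red) and Adar2+/+ cortex (grey), as the authors list them, 1 value per genotype and no error bars. The Y/C bar is 1.97% in the knockout, while I/V and Q/R stand at 28.1% and 35.0%.

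The order of the sites differed between the genotypes. In Adar2-/- cortex the order from the highest down was Q/R, I/V, Y/C. In Adar2+/+ cortex it was Q/R, Y/C, I/V. The neighbouring Y/C and I/V sites changed places: editing at Y/C was 26.1 points lower than at I/V in Adar2-/- cortex, and 9.79 points higher than at I/V in Adar2+/+ cortex. Read as unedited mRNA, 98.0% of reads at the Y/C codon kept tyrosine in Adar2-/- cortex, against 18.7% in Adar2+/+ cortex. Of reads at the Q/R codon, 65.0% kept glutamine in Adar2-/- cortex, against 11.6% in Adar2+/+ cortex. Whether single molecules are edited at several sites cannot be read from these percentages.

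The 3 sites were compared with each other on 3 scales, with no test, since the files give neither coverage nor values per library. As a difference of knockout minus control, the change was -79.3 points at Y/C, -53.4 points at Q/R and -43.4 points at I/V. As a share of the control level, 2.42% was left at Y/C in the knockout, 39.5% at Q/R and 39.3% at I/V. As a difference of log2 odds (edited over unedited reads, knockout minus control), the values were -7.76 at Y/C, -3.83 at Q/R and -2.68 at I/V. The Y/C site thus had the largest change on each of the 3 scales. Q/R minus I/V was -10.1 points for the difference and -1.14 for the log2 odds, that is, a larger fall at Q/R, while the share left was higher at Q/R by 0.216 points. The order of Q/R and I/V therefore depends on the scale.

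**Figure D2:**
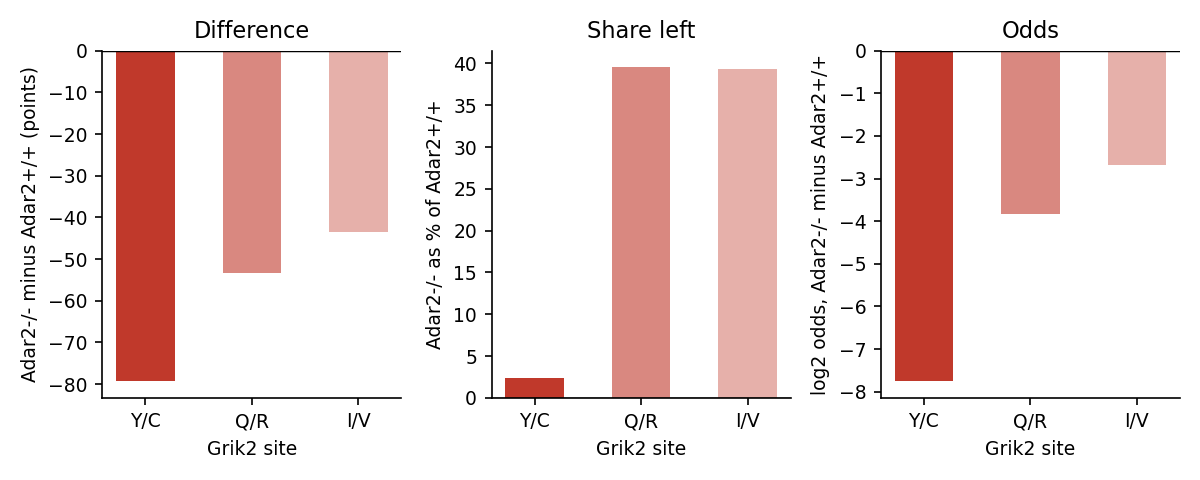
Change of editing at the 3 Grik2 sites as knockout minus control in percentage points (left), as the percent of the control level that is left in the knockout (middle) and as a difference of log2 odds (right). Y/C stands apart in each panel, and Q/R and I/V are level at 39.5% and 39.3% in the middle one.

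Among all 143 sites, the Y/C change of -79.3 points was the largest fall, that of Q/R ranked 10th and that of I/V 15th. By share of the control level left, Y/C ranked 4th, I/V 42nd and Q/R 43rd from the lowest, and 30.1% of the 143 sites had at most 40% left. In the knockout the Q/R site was the third most edited of the 22 amino acid sites and I/V the sixth, while Y/C ranked 15th. In the control Q/R also ranked 3rd of these 22, Y/C 4th and I/V 9th. By share left, Y/C ranked 3rd from the lowest of the 22, I/V 16th and Q/R 17th. The median of the 19 amino acid sites outside Grik2 was 11.1% in Adar2-/- cortex and 41.7% in Adar2+/+ cortex, and 14 of the 19 had at most 40% of the control level left. Like Y/C, 7 of these 19 sites had at most 5% left, as did 11 of all 140 sites outside Grik2. For Grik2 the medians of the 3 sites were 28.1% in Adar2-/- cortex and 81.3% in Adar2+/+ cortex. The 3 Grik2 sites share 1 mRNA and are not independent, and no test against the other genes was made.

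The sites most like each Grik2 site were found by distance in the plane of both percentages. Closest to Y/C was a site in a repeat of the 3' UTR of Snhg11, 2.18 points away, with 3.52% in Adar2-/- and 79.7% in Adar2+/+ in the authors' deposited table. The K/E site of Cyfip2, a WAVE complex subunit that acts on actin, followed at 10.3 points, and a 3' UTR site of Kif3c, a kinesin motor, at 12.3 points. Closest to I/V was the R/G site of the AMPA receptor gene Gria2, 5.11 points away, at 23.2% in Adar2-/- and 73.0% in Adar2+/+ in the authors' deposited table. The Q/R site of Tmem63b, a mechanosensitive channel gene, lay 5.19 points from I/V, and a 3' UTR site of Usp29 lay 7.22 points from it. Closest to the Grik2 Q/R site was a 3' UTR site of the proteasome gene Psma3, 5.05 points away, at 40% in Adar2-/- and 88.6% in Adar2+/+ in the authors' deposited table. The R/G site of Gria4 was 14.6 points from it and the Tmem63b Q/R site 15.3 points. The R/G site of Gria3, at 81.2% in Adar2-/- and 94.2% in Adar2+/+ in the authors' deposited table, kept more editing in the knockout than each of the Grik2 sites.

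**Figure D3:**
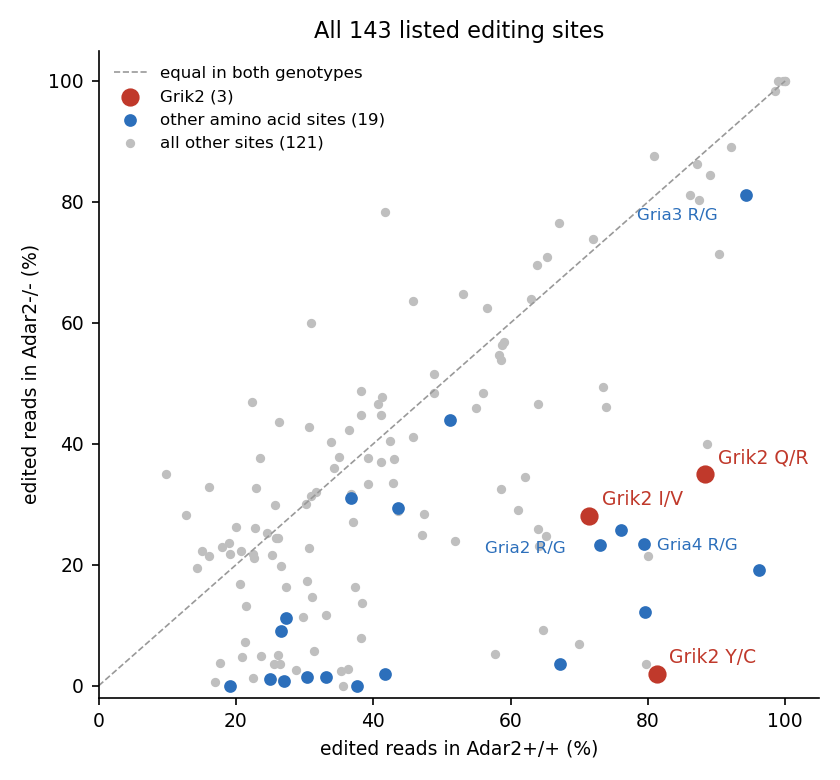
Each point is 1 of the 143 listed sites, with the percent of edited reads in Adar2-/- cortex on the vertical axis and in Adar2+/+ cortex on the horizontal one. Grik2 sites are red, the 19 other amino acid sites blue and all others grey. The 3 Grik2 points lie far below the dashed line of equal editing, and Y/C lies near 0 in the knockout.

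Nearby sites with unlike changes also occurred elsewhere. The table holds 22 pairs of sites at most 50 bases apart in 1 gene, from 16 genes. The changes of Y/C and I/V, 13 bases apart, differed by 35.9 points, where the median over the 22 pairs was 17.6 points. A wider gap was found for 3 pairs, in 3' UTR repeats of Ttbk2 (50.9 points), Ebna1bp2 (50.2 points) and Kif3c (36.3 points). These pairs were unlike the Grik2 pair, in which both sites fell from 81.3% and 71.5% in control. In Ttbk2 1 site rose from 12.8% in control to 28.2% in the knockout, and in Ebna1bp2 1 rose from 30.9% to 60%. The Kif3c sites both fell, from 57.75% to 5.28% and from 16.9% to 0.694%, so that their control levels lay far apart. By level in the knockout, Y/C and I/V differed by 26.1 points. On this measure the median over the 22 pairs was 17.7 points, and 7 pairs had a wider gap than Grik2. In Rpa1, 2 sites of the 3' UTR, 15 bases apart, both fell. They went from 31.4% in control to 5.79% in the knockout and from 89.1% to 84.4%. In only 2 of the 22 pairs did both sites change an amino acid. Pairs from 1 gene share sites, and these ranks are a description.

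Kainate receptor mRNA levels were then compared between conditions A and B, with no difference called. None of the 5 genes passed (authors' adjusted p under 0.05), where 0.0197% of all listed genes did. At an unadjusted p under 0.05 none passed, where 1.86% of all genes did. The smallest unadjusted p was that of Grik5, and each of the 5 genes had an authors' adjusted p of 1. In bulk tissue, fewer cells of a type and less RNA per cell cannot be told apart.

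Among the subunits that form channels on their own, Grik2 was counted most, at a mean of 3143 normalized reads over A and B, and was 1.05-fold higher in condition A than in B in the authors' deposited table. Its log2 difference of 0.07 was the smallest in the family, with an authors' unadjusted p of 0.75. Grik3 had a mean count of 1165 and a log2 difference of 0.19 in the authors' deposited table (authors' unadjusted p = 0.539). Grik1 had a mean count of 316 and a log2 difference of 0.13 in the authors' deposited table (authors' unadjusted p = 0.493). Grik2, the only 1 of the 3 with listed editing sites, was thus the most counted and the least different between conditions.

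Of the high-affinity subunits, Grik4 had a mean count of 643 and a log2 difference of 0.09 in the authors' deposited table (authors' unadjusted p = 0.454). Grik5 had a mean count of 1508 and was 1.25-fold higher in condition A than in B in the authors' deposited table. This log2 difference of 0.32 was the largest in the family, with an authors' unadjusted p of 0.0903, and larger in size than that of 94.2% of all listed genes. All 5 point estimates were higher in condition A, as were those of 52.9% of all listed genes. The median log2 difference was 0.13 over the 5 genes and 0.01 over all genes.

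Markers of some cell types, though not of all, lay on the same side. All 5 interneuron markers were higher in condition A, with a median log2 difference of 0.15 and a range of 0.10 to 0.34. The 3 striatal neuron markers in the table, whose mean counts added up to 953, were higher in A as well, with a median of 0.30. So were the 3 olfactory bulb markers, with summed mean counts of 790.4 and a median of 0.32. The authors' unadjusted p-values of these olfactory bulb markers lay between 0.872 and 0.987. Both measured choroid plexus markers were higher in A (median 0.13). The remaining types were mixed or lay the other way. Of the 4 excitatory neuron markers 3 were higher and 1 lower in A, with a median of 0.13. Astrocyte (median 0.06), microglia (0.05) and oligodendrocyte precursor markers (0.11) also each had 1 member lower in A. Of the 4 oligodendrocyte markers 3 were lower in A (median -0.05). Of the 31 measured marker genes, 24 were higher in A, where 52.9% of all listed genes were. None passed at an adjusted p under 0.05, where 0.0197% of all listed genes did. At an unadjusted p under 0.05 there was 1, where 1.86% of all listed genes passed. This marker was the striatal gene Ppp1r1b, with a log2 difference of 0.30 in the authors' deposited table (authors' unadjusted p = 0.00242). The part of these markers in the Grik differences was not tested.

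Levels of different genes were compared as normalized reads per kb of exon over both conditions. Exon lengths came from GENCODE M21, since the lengths behind the authors' counts are not stated. Grik5 stood highest at 292 reads per kb and Grik2 followed at 237. Grik3 had 129.9 reads per kb and Grik4 had 108. Grik1 was lowest at 47.1 reads per kb. The order was the same when the longest coding transcript gave the length. Whether neighbours in this order differ beyond the spread between libraries cannot be told from means.

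**Figure D4:**
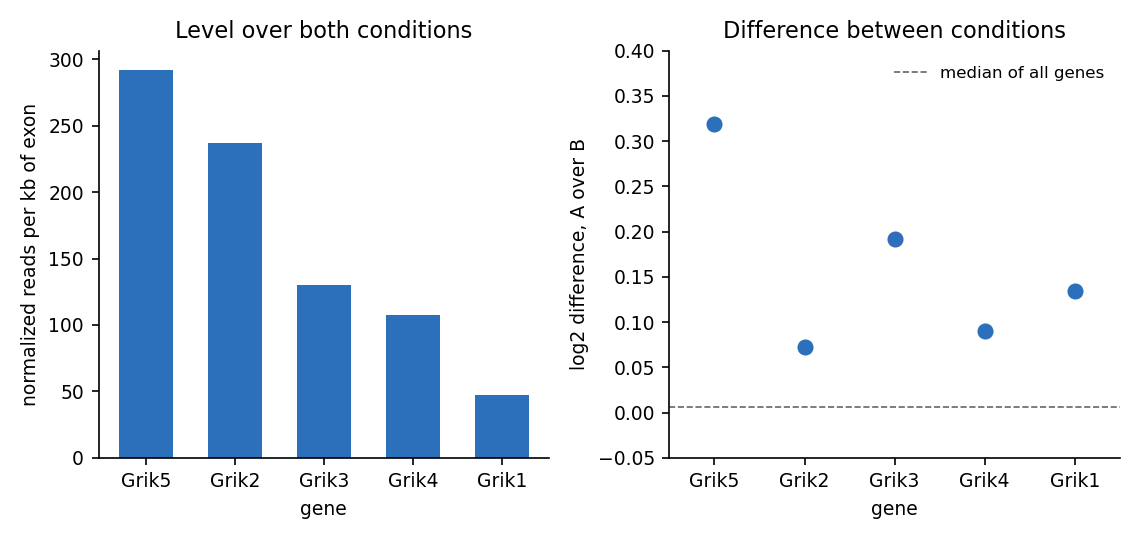
Left, mean normalized reads per kb of exon of the 5 kainate receptor genes over both conditions. Right, the log2 difference of condition A over condition B in the authors' gene table, with the median of all genes as a dashed line and no error bars, since only group values are listed. All 5 points lie above the line, with Grik5 highest at 0.32, and none of the differences passed the authors' test.

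The auxiliary subunits of kainate receptors showed no called difference. Neto1, which slows the gating of these receptors, had a mean count of 1423 and a log2 difference of 0.10 in the authors' deposited table. Neto2 had a mean count of 2938 and a log2 difference of -0.08 in the authors' deposited table. Neither passed, with an authors' adjusted p of 1 for each. Of the 24 listed partners (auxiliary subunits, C1q-like organizers, scaffolds, the N-cadherin complex, the actinfilin ligase, the sumoylation pathway and trafficking proteins), 23 were in the gene table. Among these 0 passed at an adjusted or an unadjusted p under 0.05, where 0.0197% and 1.86% of all listed genes did. Higher in condition A were 14 and lower were 9, where 52.9% of all listed genes were higher. The median log2 difference of the partners was 0.01. The smallest unadjusted p among them was that of Kif5a, a kinesin heavy chain, at 0.177 with a log2 difference of 0.12 in the authors' deposited table.

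The AMPA, NMDA and delta receptor genes gave a like picture. Of 13 genes 12 were in the gene table, and 0 passed at an adjusted or an unadjusted p under 0.05. Over all listed genes these shares were 0.0197% and 1.86%. Higher in condition A were 8 and lower were 4, where 52.9% of all listed genes were higher. The median log2 difference of these receptor genes was 0.01. Gria4, an AMPA receptor subunit, had the smallest unadjusted p of them, 0.151, with a log2 difference of -0.11 in the authors' deposited table. The largest difference in size was that of Grin2d, an NMDA receptor subunit with a mean count of 65.7 over both conditions, at 0.51 in the authors' deposited table. Differences among the 17 listed ionotropic subunits of all families ranged from -0.11 to 0.51.

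Exon usage, given as knockout over control, was compared for the 94 bins of the 5 genes, and none passed. Over all genes, 0.00738% of tested bins had an authors' adjusted p under 0.05, and each of the 94 Grik bins had one of 1. At an unadjusted p under 0.05 there were 2 Grik bins (2.13%), both in Grik2, against 1.67% of all tested bins. These were bin E021, with a log2 change of 0.22 in the authors' deposited table (authors' unadjusted p = 0.0415), and bin E001, with one of -0.29 (authors' unadjusted p = 0.0436). They point in opposite directions. Of the 94 bins 50 were higher and 44 lower in the knockout, where 50.3% of all tested bins were higher, and the log2 changes lay between -0.45 and 0.30.

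Within Grik2, 27 bins were listed, with mean normalized counts of 21.9 to 523. Of these 17 were higher and 10 lower in the knockout, with a median log2 change of 0.01. The change of largest size, -0.45, was in bin E022, which had the lowest count of the gene. The exon table lists bins by number and not by position, so the bins that hold the edited codons were not identified. The median size of the log2 change, regardless of sign, was 0.06 in Grik2, where all tested bins in the same range of counts had 0.07.

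The other subunits had no bin with an unadjusted p under 0.05. Grik3 had 15 bins with log2 changes of -0.16 to 0.15, and its bin E017 had the largest mean count of the 94, 701, with a log2 change of -0.02 in the authors' deposited table. Grik4 had 21 bins between -0.26 and 0.27, and Grik5 had 20 bins between -0.35 and 0.18. Grik1 had 11 bins between -0.29 and 0.30, none with a mean count above 38.6. Its median size of change, 0.24, compares with 0.13 over all tested bins in the same range of counts. The smallest unadjusted p was 0.102 in Grik1 (bin E006), 0.346 in Grik3 (E016), 0.161 in Grik4 (E012) and 0.105 in Grik5 (E014).

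**Figure D5:**
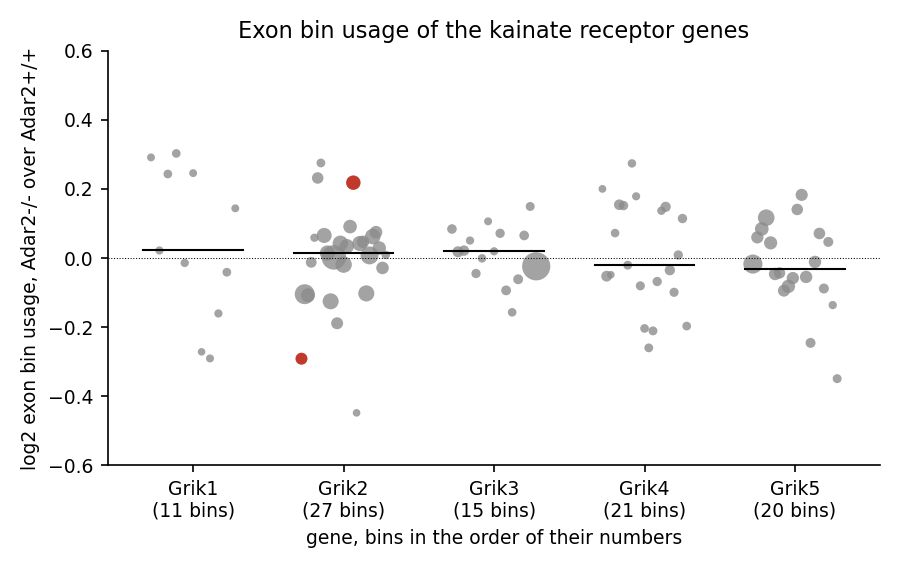
Log2 change of exon bin usage, Adar2-/- over Adar2+/+ (vertical axis), for the 94 bins of the 5 genes, in the order of their numbers. Point area grows with mean count, black lines are medians, and red marks the 2 Grik2 bins with an unadjusted p under 0.05. Points of each gene lie on both sides of 0, within -0.45 and 0.30.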

How the data were processed

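RNA from 12 frontal cortices was sequenced after Trizol extraction, with stranded total RNA libraries depleted of ribosomal RNA, per the labels. Per the submitters' processing notes, the build was mm9 and the tools were DESeq, HTSeq, SAMtools 01.19.0, Bowtie2 2.02.0 and TopHat2 2.0.6, without stated roles. The authors' deposited gene table holds mean normalized counts (a signal), a ratio of B over A, its log2 value and p-values. The deposited exon table holds mean counts, log2 ratios of control over ADAR and p-values. The deposited editing table holds percent edited reads and adjusted p-values. Of the site caller, its test and any pooling, nothing is given in the sources used here. The 2 columns of means per condition in the gene table were not used, as the genotype behind them is not named.

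Log2 ratios were turned round to A over B and to knockout over control. With no values per library, the authors' p-values were used at an adjusted p under 0.05. Adjustments made again over listed features were tested on simulated data. Exon table IDs were matched to symbols (12642 of 13536). Sites were placed in coding sequence by codon and spacing, and subunits aligned as translated sequences with Biopython 1.88. Named genes were Grik1 to Grik5, Adarb1, Neto1, Neto2, the Gria2 to Gria4 R/G sites, the smallest p among the partners and among the other glutamate receptors, and for each Grik2 site the 3 nearest. Tbr1, Slc17a7, Ppp1r1b, Grin2d, Ttbk2, Ebna1bp2, Rpa1 and the close pair in Kif3c fall outside this rule and were chosen after their values were seen. Members and lists were chosen with earlier results of these data known. The labels do not say whether each library is a separate animal beyond the 6 cortices per genotype.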

Additional observations from a re-analysis of the deposited data

How the results depend on the processing

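The order of the Grik2 Q/R and I/V sites depended on the scale. In percentage points Q/R minus I/V was -10.1, a larger fall at Q/R. As a share of the control level left it was 0.216 points, a smaller loss at Q/R, which starts from the higher control level. The larger change at Y/C held on all 3 scales. The 3 Grik2 calls held at an adjusted p under 0.01, under 0.001, and with a minimum difference of 10 points. No Grik gene or bin was called at an adjusted p under 0.1, when adjusted over the listed features alone, or with mean count minimums of 100 for genes and 50 for bins, and no Grik gene was called for exon usage by a Simes p. With log2 differences centred on the median of all genes, an alternative chosen after seeing the data, all 5 genes stayed higher in condition A. No paired analysis was possible because values of single libraries were not at hand and replicate numbers are accession order only. For the same reason no library could be left out, no normalization changed, and no interval or detection limit given. Coverage, and with it the precision of each percentage, is unknown.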
